A study of Mus musculus with 6 samples.

Results

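The subunits of the corepressor complexes that carry histone deacetylases were followed in mouse frontal cortex after repeated treatment with SAHA. They are 35 genes, chosen by symbol from the Sin3, NCoR, CoREST and NuRD complexes and their partners, and 35 of 35 were found among the 19938 genes measured. SAHA (suberoylanilide hydroxamic acid, vorinostat) inhibits the zinc-dependent histone deacetylases. The SAHA group held 3 libraries from mice given 20 mg per kg by intraperitoneal injection over 21 days, and the saline group held 3 libraries from mice given vehicle over the same time. All mice were wild type, of strain 129S6/SvEv and 8 to 12 weeks old, and the frontal cortex of both hemispheres was taken 1 day after the last injection. RNA of each library was measured on 1 whole-transcript array, so the small number of arrays limits the precision. Whether the libraries are separate animals is not stated in the labels, so p-values measure the spread between these libraries only. In tissue RNA, fewer cells of a type and less RNA per cell cannot be told apart.

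A deacetylase of class I does not bind DNA by itself. HDAC1 and HDAC2 sit in the Sin3, NuRD, CoREST and MIER complexes and HDAC3 in the NCoR complex, where scaffold proteins hold the enzyme, activate it and bring it to chromatin through DNA-binding factors and histone readers. In neurons these complexes are known for repression by REST and at genes of neuronal activity. The array measured the RNA of the subunits, not the assembly or the activity of a complex.

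The promoters of Sin3a and Mier1, which had lower signal in every SAHA library than in every saline library, are shown with that of Sin3b, the paralog of Sin3a whose groups overlapped. Sequences are from RefSeq on GRCm38.p6, run from 250 bases before to 50 bases after an annotated start, and read along the strand of the gene. Capitals mark the GC box, GGGCGG or its reverse complement CCGCCC, the letters bound by Sp-family factors. Sin3a has 2 annotated starts in the table, and both are given. Of the Mier1 starts, the one in the window richer in CpG is given.

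Sin3a, chr9:57071790-57072089, plus strand: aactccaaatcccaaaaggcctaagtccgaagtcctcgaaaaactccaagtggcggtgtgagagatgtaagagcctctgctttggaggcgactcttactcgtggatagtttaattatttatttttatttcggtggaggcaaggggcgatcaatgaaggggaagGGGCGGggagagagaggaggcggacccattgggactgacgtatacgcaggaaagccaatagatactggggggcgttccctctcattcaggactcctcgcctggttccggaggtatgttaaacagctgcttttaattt

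Sin3a, chr9:57076126-57076425, plus strand: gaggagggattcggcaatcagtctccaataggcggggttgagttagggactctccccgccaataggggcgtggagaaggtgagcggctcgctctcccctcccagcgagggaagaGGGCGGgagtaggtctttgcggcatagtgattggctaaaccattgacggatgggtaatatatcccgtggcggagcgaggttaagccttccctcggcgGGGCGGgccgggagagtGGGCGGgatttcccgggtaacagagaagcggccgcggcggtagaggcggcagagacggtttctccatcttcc

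Sin3b, chr8:72723020-72723319, plus strand: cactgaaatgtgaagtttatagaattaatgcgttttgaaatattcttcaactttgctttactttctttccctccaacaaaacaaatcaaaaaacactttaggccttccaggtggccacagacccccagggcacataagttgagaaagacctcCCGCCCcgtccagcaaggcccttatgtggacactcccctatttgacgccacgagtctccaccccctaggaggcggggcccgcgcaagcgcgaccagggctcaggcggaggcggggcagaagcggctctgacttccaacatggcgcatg

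Mier1, chr4:103119140-103119439, plus strand: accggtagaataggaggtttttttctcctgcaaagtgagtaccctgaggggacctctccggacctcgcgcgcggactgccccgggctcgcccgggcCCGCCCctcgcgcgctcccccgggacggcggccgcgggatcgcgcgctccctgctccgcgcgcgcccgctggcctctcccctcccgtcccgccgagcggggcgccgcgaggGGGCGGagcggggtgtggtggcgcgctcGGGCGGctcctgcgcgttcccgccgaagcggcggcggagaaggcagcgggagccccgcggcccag

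The printed windows of Sin3a held 1 and 3 GC boxes, that of Sin3b held 1 and that of Mier1 held 3. The single window of Kdm1a, whose groups did not overlap either, held 0. RefSeq windows were found for 28 of the 35 subunits, 41 windows in all; those of Arid4a, Brms1, Chd3, Mbd2, Mta3, Rest and Sap130 were not used here. A GC box stood in 35 of the 41 windows (85.4%), against 35.7% of all 32851 windows in the table. The windows of the subunits were rich in CpG, with a median of 27 CpG and 65.7% G and C, against 7 CpG and 52.7% over all windows. Motifs are matches of letters on either strand, counted without regard to overlap with another motif. The ETS motif CCGGAAG was in 4 of the 41 windows, against 8.86% of all windows. CACGTG, the E-box, was in 2 of the 41, against 7.15% of all windows. The NRF1 motif was in 1 of the 41, against 0.971% of all windows. The CRE letters TGACGTCA and the YY1 letters AAGATGGC were in 0 of the 41, against 1.79% and 2.75% of all windows.

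Several facts of the arrays bear on every gene below. Saline replicate 1 had a log2 signal of 10.9 for Xist, the RNA of the inactive X chromosome, against 4.63 to 4.88 in the other libraries, beside Y-linked RNA at the level of its group. SAHA replicate 3 had less Y-linked RNA than the other libraries, with Uty at 6.74 against 7.93 to 8.24 elsewhere. The 7 neuronal markers, which define the tissue, were at a mean log2 signal of 11.40 to 11.44 in SAHA libraries and 11.37 to 11.41 in saline libraries. The groups did not overlap for 4 of the 7, against 23.9% of all genes. Of these, 3 were higher, Rbfox3 by 0.069, Snap25 by 0.059 and Slc17a7 by 0.11, and 1 was lower, Syt1 at -0.040. The markers of red cells and neutrophils were dim, with list means of 5.67 to 5.83 in SAHA libraries and 5.40 to 5.56 in saline libraries. Of these, 4 of 4 genes were higher. The neutrophil genes S100a8, S100a9 and Ly6g differed by 0.46 (SE 0.11), 0.21 (SE 0.067) and 0.28 (SE 0.10). Alas2, the red cell gene measured, differed by 0.044 (SE 0.090), and its groups overlapped. All genes in signal deciles 1 and 2, the dimmest, where the neutrophil genes lie, had median differences of 0.069 and 0.11. Endothelial markers were also higher, with list means of 7.23 to 7.28 in SAHA libraries and 7.13 to 7.22 in saline libraries, and 3 of 4 genes higher. In the choroid plexus list Aqp1, a water channel, differed by 0.42 (SE 0.068, adjusted p 0.116 in limma), while the list means of the groups overlapped. The part of these markers in the differences below was not tested. Dim genes were more often higher and bright genes more often lower in SAHA: the median difference was 0.089 below the median signal and -0.039 at or above it. Among the subunits, 33 of 35 lay at or above the median signal. In limma, 0 of 19938 genes had a Benjamini-Hochberg adjusted p under 0.05, and 17.4% were at an unadjusted p under 0.05. All differences below are SAHA minus saline on the log2 scale, with the standard error (SE) and 95% confidence interval of the limma fit.

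No deacetylase corepressor subunit passed the test over all genes, with adjusted p in limma between 0.217 and 0.995, and their differences lay between -0.19 and 0.10. The 3 subunits with an unadjusted p under 0.05 were Sin3a, Rest and Mier1, each from another complex and each at 0.874 to 0.884 times its saline level in SAHA. They are 8.57% of the subunits, against 17.4% of all genes in either direction. Lower genes were 5.56% and higher genes 11.9% of all genes. Most subunits are bright, and limma was also fitted to only the 9969 genes from the median signal upward. There, 1316 genes were lower and 587 higher at an unadjusted p under 0.05. Of the 33 subunits in that fit, 2 were at this level, Sin3a and Mier1, both lower. Rest, the other of the 3 genes, is dimmer and lay outside that fit. The groups did not overlap for 4 subunits, these 3 and Kdm1a, or 11.4%, against 23.9% of all genes in either direction and 10.4% in the direction of these 4; 13.6% were higher without overlap, a class that held 0 subunits. In count, 27 of 35 subunits had a mean below saline, at a median difference of -0.038, against 47.1% of all genes with a median of 0.011, and 66.4% of genes at or above the median signal with a median of -0.039. The whole 95% confidence interval lay within 1.3-fold of no difference for 35 of the 35 subunits, against 74.6% of all genes, and within 1.5-fold for 35 of 35, against 95.8%; both folds were chosen after the values were seen. The intervals that reached furthest were those of Rest (-0.35 to -0.036), Sap18 (-0.34 to 0.14) and Sin3a (-0.33 to -0.035), the 3 that a bound slightly tighter than 1.3-fold would leave outside.

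**Figure D1:**
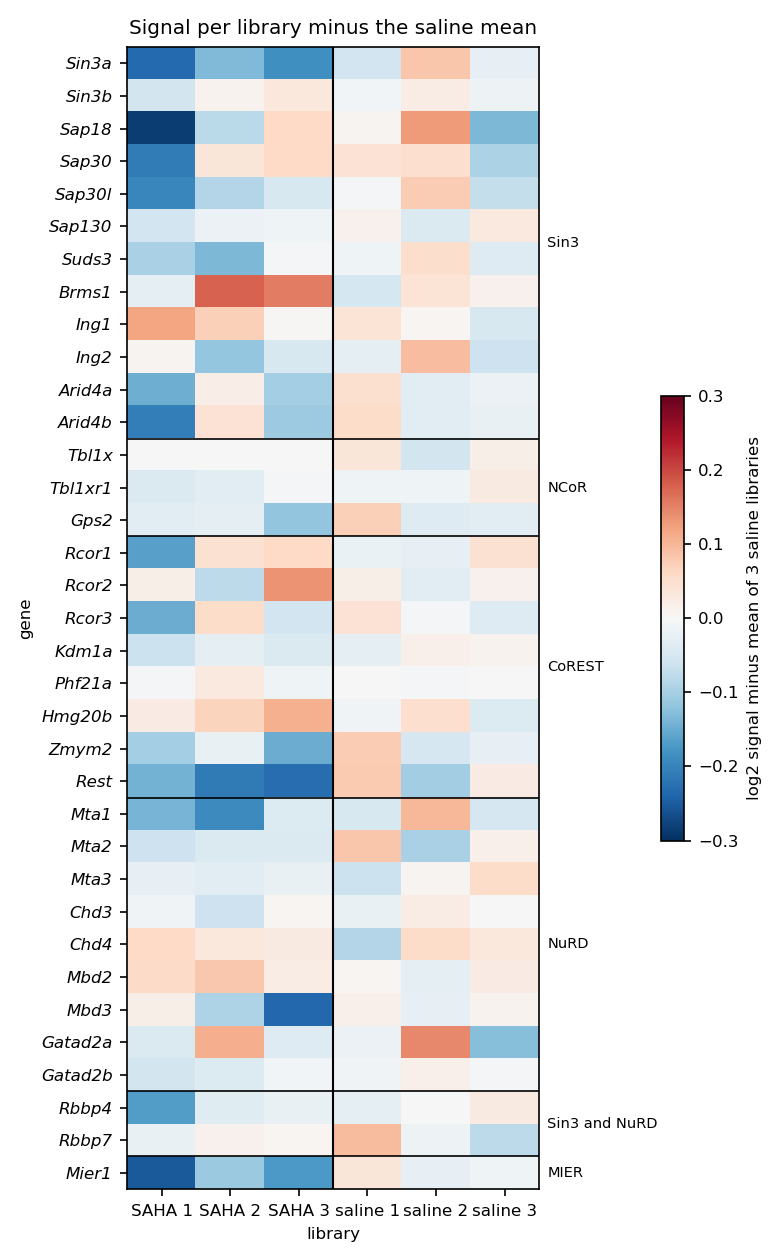
Each cell shows the log2 signal of a subunit in 1 library minus the mean of the 3 saline libraries (colour scale from -0.3 to 0.3), with SAHA libraries left and saline libraries right and genes grouped by complex. Sin3a, Rest and Mier1 are below the saline mean in 3 of 3 SAHA libraries. SAHA replicate 1 holds the lowest value of 15 of the 35 subunits (42.9%), against 34.3% of genes at or above the median signal.

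The subunits did not vary evenly over the SAHA libraries. SAHA replicate 1 held the lowest value of the 6 libraries for 15 of 35 subunits (42.9%), against 34.3% of genes at or above the median signal and 21.3% of all genes. SAHA replicates 2 and 3 held the lowest value of 5 subunits each. The median deviation of the subunits from their saline mean was -0.055, -0.029 and -0.014 in SAHA replicates 1 to 3, against 0.0022, 0.00038 and -0.014 in saline replicates 1 to 3. SAHA replicate 3 thus lay at the level of saline replicate 3. Without SAHA replicate 1 the median difference was -0.024, and 23 of 35 subunits were lower, against 46.6% of all genes. The spread within groups was small, with a median pooled SD of 0.063 over the subunits, against 0.074 over genes at or above the median signal and 0.096 over all genes.

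The number of lower subunits and the size of their median moved with the scaling of the arrays, while the median stayed below 0 under each scaling run. After quantile normalization 19 of 35 subunits were lower, at a median of -0.012, where 46.7% of all genes were lower. After cyclic loess normalization it was again 19 of 35, at a median of -0.015, where 49.4% of all genes were lower. After centring each array on its median, 30 of 35 were lower, at a median of -0.076, where 57.7% of all genes were lower. Sin3a, Rest and Mier1 kept their sign under all of these, as described for each below.

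**Figure D2:**
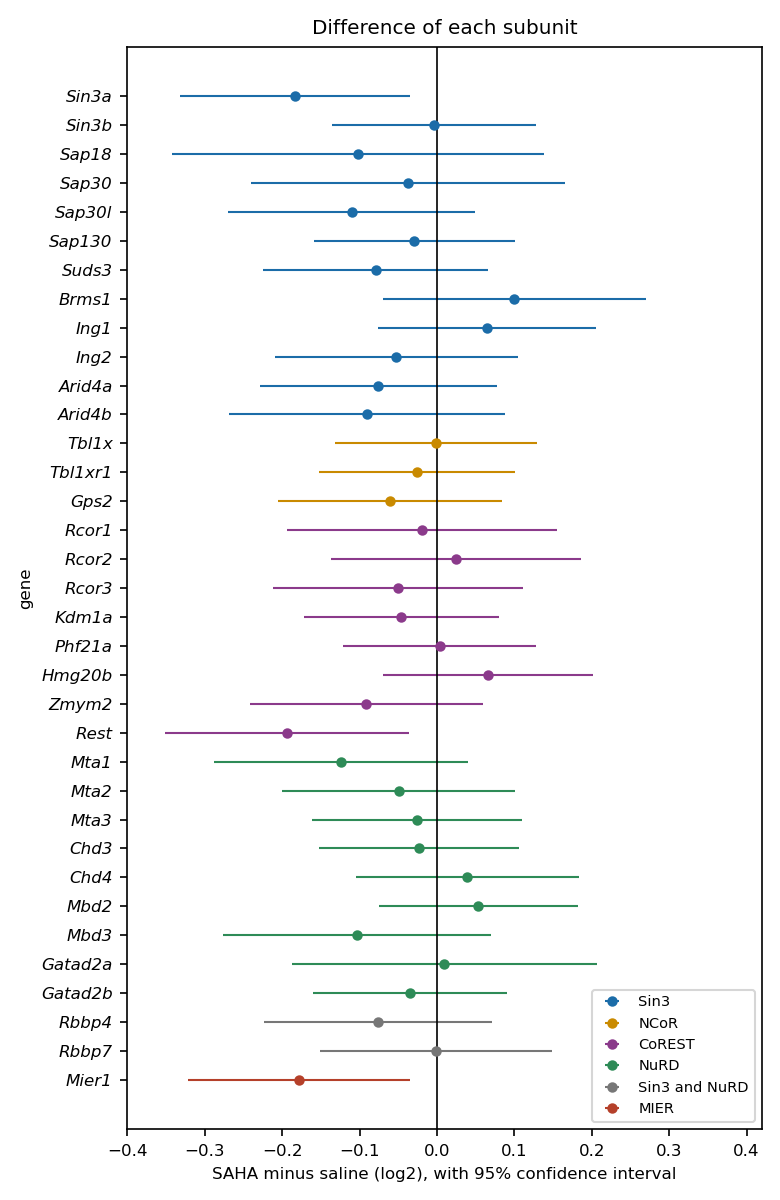
Points give the difference of each subunit, SAHA minus saline (log2, n = 3 libraries per group), coloured by complex, and bars give the 95% confidence interval of the limma fit. The intervals of Sin3a, Rest and Mier1 lie below 0, and those of the other 32 subunits include 0.

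The Sin3 complex is built on SIN3A or SIN3B, large scaffolds whose paired amphipathic helices bind repressors and which hold HDAC1 or HDAC2. Sin3a had a log2 signal of 8.39, 8.49 and 8.44 in SAHA libraries, against 8.56, 8.70 and 8.59 in saline libraries. All SAHA values lay below all saline values. The difference was -0.18 (SE 0.064), 0.881 times the saline level, at an unadjusted p of 0.0219 and an adjusted p of 0.22 over all genes in limma. Quantile and cyclic loess normalization each gave -0.14, and the difference lay between -0.22 and -0.14 over 17 alternatives. Sin3b gave 7.78, 7.84 and 7.86 in SAHA libraries, against 7.82, 7.85 and 7.82 in saline libraries. Its groups overlapped, at a difference of -0.0039 (SE 0.057).

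Among the smaller Sin3 subunits, most means lay below saline while the groups overlapped for all 10, where 23.9% of all genes had groups apart. Sap30l, a paralog of the bridging subunit SAP30, had 7.48, 7.59 and 7.63 in SAHA libraries, against 7.67, 7.75 and 7.60 in saline libraries, a difference of -0.11 (SE 0.069). Only saline replicate 3 reached into the SAHA range. Brms1, a relative of SDS3 first described as a suppressor of breast cancer metastasis, had 7.12, 7.33 and 7.31 in SAHA libraries, against 7.10, 7.19 and 7.17 in saline libraries. Its difference was 0.10 (SE 0.073), the greatest above 0 among the subunits, and SAHA replicate 1 lay within the saline range. Without SAHA replicate 1 the Brms1 difference was 0.17, at an unadjusted p of 0.0425 and an adjusted p of 0.373 in limma. Sap18, a ubiquitin-like subunit also found in splicing-linked complexes, spread most: 8.65, 8.86 and 8.998 in SAHA libraries, against 8.95, 9.07 and 8.80 in saline libraries. Its difference of -0.10 (SE 0.10) was no larger than that spread, with an interval of -0.34 to 0.14.

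The pair Arid4a and Arid4b, which encode DNA-binding partners of the retinoblastoma protein, varied together from library to library. Arid4a had 9.48, 9.65 and 9.52 in SAHA libraries, against 9.67, 9.59 and 9.61 in saline libraries. Arid4b had 9.35, 9.60 and 9.45 in SAHA libraries, against 9.61, 9.53 and 9.54 in saline libraries. Each was low in SAHA replicates 1 and 3 and at its saline level in SAHA replicate 2. Over the 6 libraries the SD was 0.074 for Arid4a and 0.099 for Arid4b, and that of their ratio was 0.029. The histone readers Ing1 and Ing2, whose PHD fingers bind methylated histone H3, stood on either side of 0, at 0.065 (SE 0.061) and -0.052 (SE 0.068). Suds3, which the complex needs for deacetylase activity, differed by -0.079 (SE 0.063). Sap130 differed by -0.029 (SE 0.056) and Sap30 by -0.038 (SE 0.088). As a group the 12 Sin3 subunits had 10 means below saline and a median of -0.064. Quantile normalization gave a Sin3 median of -0.021, cyclic loess gave -0.022, and leaving out SAHA replicate 1 gave -0.024. Of the 12, 8 had their lowest value in SAHA replicate 1, against 34.3% of genes at or above the median signal. The group median in the SAHA libraries was -0.12 in replicate 1, against -0.0030 in replicate 2 and -0.0090 in replicate 3.

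In the NCoR complex, TBL1X and TBLR1 are WD40 proteins that bind histones and help exchange corepressor for coactivator, and GPS2 links them to the scaffold. Tbl1x had 9.28 in each of the 3 SAHA libraries, against 9.31, 9.22 and 9.30 in saline libraries, a difference of -0.00096 (SE 0.057). The SAHA values lay inside the saline range. Tbl1xr1, the gene of TBLR1, had 10.18, 10.19 and 10.22 in SAHA libraries, against 10.21, 10.21 and 10.25 in saline libraries. Its difference was -0.026 (SE 0.055), and a dimmer probe set of Tbl1xr1 gave -0.021 (SE 0.060). Gps2 had 7.93, 7.94 and 7.85 in SAHA libraries, against 8.04, 7.93 and 7.93 in saline libraries, a difference of -0.061 (SE 0.062). None of the 3 had groups apart, against 23.9% of all genes. Tbl1x is X-linked, and without saline replicate 1 it differed by 0.017.

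The CoREST complex pairs HDAC1 or HDAC2 with the histone demethylase KDM1A on a scaffold of the RCOR family, and REST brings it to neuronal genes. Rest, a zinc finger repressor kept low in mature neurons, had 6.76, 6.69 and 6.67 in SAHA libraries, against 6.98, 6.80 and 6.93 in saline libraries. The groups did not overlap, and saline replicate 2 lay nearest to the SAHA range. The difference was -0.19 (SE 0.068), 0.874 times the saline level, at an unadjusted p of 0.0222 and an adjusted p of 0.221 over all genes in limma. Quantile normalization gave -0.24 and cyclic loess -0.25. Among the subunits, Rest is one of 2 that lie below the median signal of the array, where genes had a median difference of 0.089.

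Rest is known mainly from non-neuronal cells, so glial markers are given beside it. Microglial markers were lower for 3 of 5 genes, with list means of 7.31 to 7.42 in SAHA libraries and 7.402 to 7.42 in saline libraries. For 2 of the 5 the groups did not overlap, both lower, against 10.4% of all genes lower without overlap and 23.9% in either direction. Aif1 differed by -0.21 (SE 0.062, unadjusted p 0.00910, adjusted p 0.172 in limma) and Csf1r by -0.10 (SE 0.061). P2ry12 differed by -0.092 (SE 0.071), and its groups overlapped. Cx3cr1 and C1qa were higher, by 0.098 (SE 0.069) and 0.10 (SE 0.11), with groups that overlapped. Astrocyte markers were lower for 4 of 5, at 8.73 to 8.86 in SAHA libraries and 8.80 to 8.88 in saline libraries. Oligodendrocyte markers were lower for 4 of 5, at 8.63 to 8.92 in SAHA libraries and 8.73 to 8.83 in saline libraries. The list means of the groups overlapped for astrocytes, oligodendrocytes and microglia, and their part in the Rest difference was not tested.

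Kdm1a, a flavin-dependent demethylase of histone H3, had 9.402, 9.437 and 9.422 in SAHA libraries, against 9.440, 9.483 and 9.477 in saline libraries. The groups did not overlap, by a gap of under a hundredth of a log2 unit. The difference was -0.046 (SE 0.054), at an adjusted p of 0.678 in limma, and its sign turned with quantile normalization (0.0090) and with cyclic loess (0.010). Zmym2, a zinc finger partner of the complex, had 10.35, 10.43 and 10.30 in SAHA libraries, against 10.53, 10.40 and 10.43 in saline libraries, a difference of -0.091 (SE 0.065). Its second SAHA library lay within the saline range. Hmg20b, an HMG-box protein of the complex, had 6.657, 6.70 and 6.74 in SAHA libraries, against 6.62, 6.68 and 6.59 in saline libraries, a difference of 0.066 (SE 0.059). It is the other subunit below the median signal, and the groups overlapped.

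Of the RCOR scaffolds, Rcor1 had 7.76, 7.97 and 7.98 in SAHA libraries, against 7.90, 7.90 and 7.97 in saline libraries. One SAHA library lay below and the others at or above the saline values, for a difference of -0.019 (SE 0.075). Rcor2 differed by 0.025 (SE 0.070) and Rcor3 by -0.051 (SE 0.070). Phf21a, whose PHD finger binds unmethylated histone H3, differed by 0.0034 (SE 0.054), with an SD of 0.023 in SAHA libraries and 0.0031 in saline libraries (n = 3 each). The 8 genes of this group had 5 means below saline, against 47.1% of all genes and 66.4% of those at or above the median signal. Their median was -0.033, and it was 0.0034 without SAHA replicate 1.

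**Figure D3:**
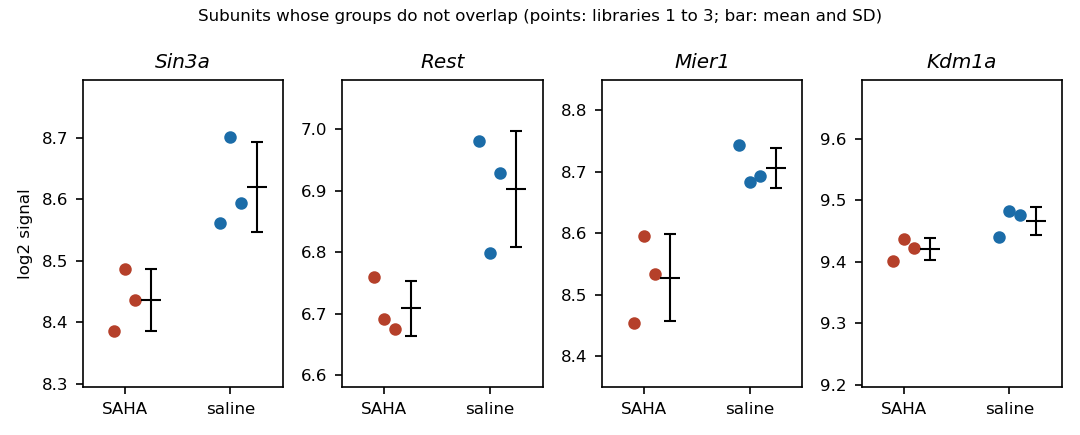
Log2 signal of the 4 subunits whose groups did not overlap, with SAHA left and saline right in each panel, points for the 3 libraries of each group, and bars for mean and SD; each panel spans 0.5 log2 units. Sin3a, Rest and Mier1 are lower in SAHA by 0.18 to 0.19, and the groups of Kdm1a differ by 0.046.

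NuRD joins deacetylation to nucleosome remodelling: CHD3 and CHD4 are its ATPases, MTA proteins hold HDAC1 or HDAC2, MBD2 or MBD3 link the complex, and GATAD2A or GATAD2B bridge to the ATPase. Chd4 had 10.08, 10.05 and 10.04 in SAHA libraries, against 9.93, 10.07 and 10.05 in saline libraries, a difference of 0.039 (SE 0.062). Saline replicate 1 alone lay apart from the other 5 libraries, which were within 10.04 to 10.08. Chd3 differed by -0.023 (SE 0.056). Mta1 had 7.95, 7.90 and 8.04 in SAHA libraries, against 8.04, 8.19 and 8.04 in saline libraries. The SAHA mean was lower by 0.12 (SE 0.071), at an adjusted p of 0.392 in limma, and SAHA replicate 3 lay within the saline range. Mta2 differed by -0.050 (SE 0.065) and Mta3 by -0.026 (SE 0.059). A dimmer probe set of Mta3 gave -0.15 (SE 0.13), with 7.58, 7.62 and 7.15 in SAHA libraries, against 7.56, 7.63 and 7.61 in saline libraries, so 1 SAHA library set that value.

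Mbd2, which binds methylated CpG, and Mbd3, its paralog with little such binding in mammals, stood on opposite sides of 0. Mbd2 had 10.50, 10.52 and 10.47 in SAHA libraries, against 10.45, 10.41 and 10.47 in saline libraries, a difference of 0.053 (SE 0.056). Mbd3 had 7.33, 7.22 and 7.08 in SAHA libraries, against 7.33, 7.29 and 7.33 in saline libraries, a difference of -0.10 (SE 0.075). SAHA replicate 3 held the lowest Mbd3 value, and without it the Mbd3 difference was -0.038. Gatad2a and Gatad2b differed by 0.0095 (SE 0.085) and -0.035 (SE 0.054). The groups overlapped for 9 of 9 NuRD subunits, where 23.9% of all genes had groups that did not overlap. Of the 9, 6 had a mean below saline, against 66.4% of genes at or above the median signal, and their median was -0.026. With quantile and cyclic loess normalization that median was 0.014 and 0.021.

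RBBP4 and RBBP7 are WD40 histone chaperones shared by Sin3 and NuRD and used in other chromatin complexes. Rbbp4 had 7.42, 7.55 and 7.57 in SAHA libraries, against 7.56, 7.59 and 7.62 in saline libraries, a difference of -0.076 (SE 0.064). The third SAHA library reached into the saline range. The brighter probe set of Rbbp7 gave 10.34, 10.38 and 10.37 in SAHA libraries, against 10.46, 10.35 and 10.29 in saline libraries, a difference of -0.0013 (SE 0.065). Its second probe set gave 10.33, 10.23 and 10.30 in SAHA libraries, against 10.46, 10.43 and 10.36 in saline libraries. There the SAHA values lay below all saline values, at -0.13 (SE 0.061) and an adjusted p of 0.381 over all probe sets in limma. The probe sets of Rbbp7 therefore disagree, and which of them tracks the transcript was not tested. Rbbp7 is X-linked, and saline replicate 1 held its highest value on both probe sets.

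Mier1 encodes a scaffold that recruits HDAC1 and HDAC2 through domains shared with the RCOR and MTA proteins. It had 8.45, 8.60 and 8.53 in SAHA libraries, against 8.74, 8.68 and 8.69 in saline libraries. The groups did not overlap, and SAHA replicate 1 was lowest. The difference was -0.18 (SE 0.062), 0.884 times the saline level, at an unadjusted p of 0.0209 and an adjusted p of 0.217 over all genes in limma. Quantile and cyclic loess normalization each gave -0.13. Its paralogs Mier2 and Mier3 differed by 0.036 (SE 0.072) and -0.14 (SE 0.081), and were named after their values were seen.

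The unadjusted p of these 3 genes changed as libraries were left out. Leaving a library out also gives the fit fewer arrays, so p can rise without a smaller difference. Sin3a, Rest and Mier1 were all at p under 0.05 over the 6 libraries. Without SAHA replicate 3 only Mier1 was, or 1 of 35, against 14.1% of all genes, and without saline replicate 1 only Sin3a, or 1 of 35, against 12.2%. Without SAHA replicate 1 it was Rest and Brms1 (13% of all genes), without SAHA replicate 2 Sin3a and Mier1 (19.4%), without saline replicate 2 Rest and Mier1 (15%), and without saline replicate 3 Sin3a and Mier1 (15.5%). Median centring put 4 subunits there, Mta1 beside the 3, against 18% of all genes. Quantile and cyclic loess normalization left Rest and Mier1, against 13.7% and 13.3% of all genes. Without both of these libraries, which stood apart in X- and Y-linked RNA, the limma fit put 0 of 35 subunits at an unadjusted p under 0.05, against 10.4% of all genes, and again 0 of 35 after cyclic loess normalization, against 9.14%. The differences on the deposited values then were -0.21 for Sin3a, -0.14 for Rest and -0.16 for Mier1. Over the alternatives run, adjusted p in limma lay between 0.135 and 0.579 for Sin3a, between 0.195 and 0.624 for Rest, and between 0.131 and 0.666 for Mier1.

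**Figure D4:**
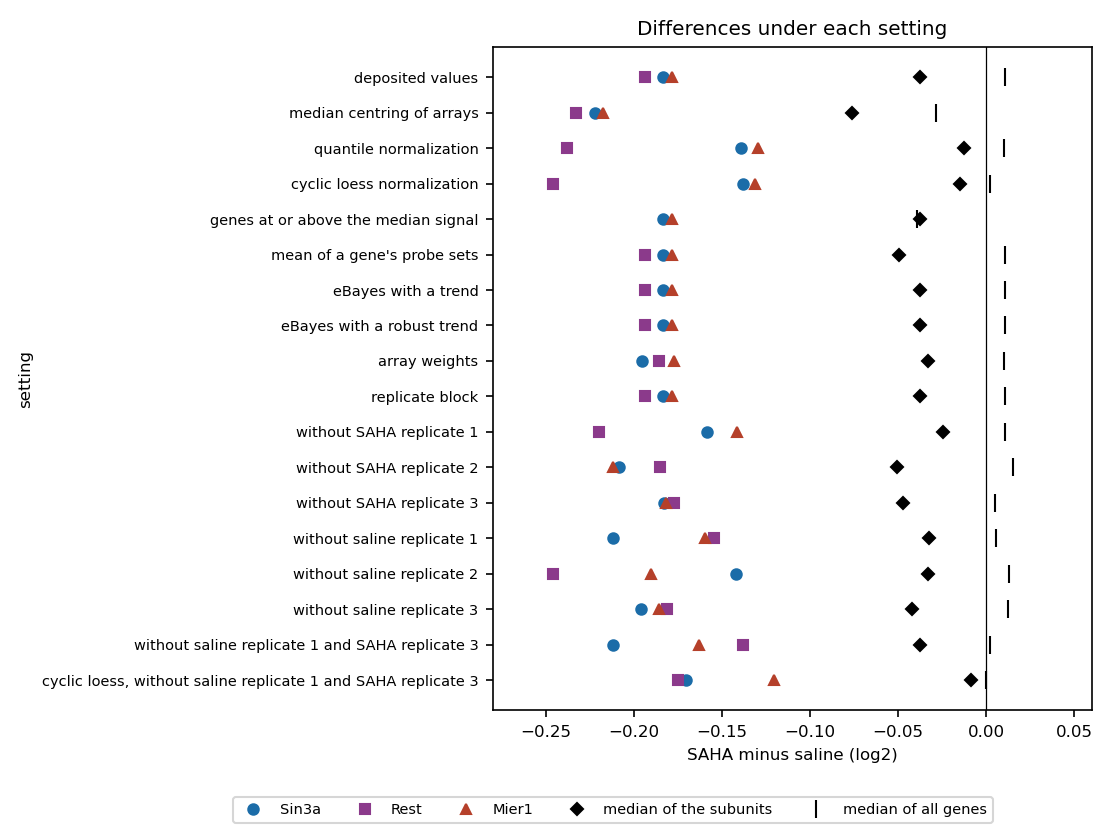
Differences, SAHA minus saline (log2), of Sin3a, Rest and Mier1, with the median of the subunits and of all genes, under the deposited values and each alternative (down the page). The symbols of the 3 genes lie between -0.25 and -0.12 throughout, while the median of the subunits lies between -0.076 and -0.0086; Rest has no symbol in the line for genes at or above the median signal.

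Many of these subunits are alternatives for one place in a complex, so the ratio of paralogs was compared within each array. There a shift equal for all genes cancels. Median differences over all genes ran from 0.11 in signal decile 2 to -0.059 in decile 9. A shift of that kind need not cancel for pairs of unlike brightness, such as Mbd2 and Mbd3. 13 pairs were compared, by an exact two-sided permutation test over the libraries, which cannot go below 0.1 with 3 libraries against 3. The log2 ratio of Sin3a to Sin3b was 0.61, 0.64 and 0.57 in SAHA libraries, against 0.74, 0.85 and 0.78 in saline libraries. The groups did not overlap, with a difference of -0.18 (exact p = 0.1, 0.52 adjusted over the 13 pairs). Sin3b itself differed by -0.0039, so this ratio mostly restates the lower signal of Sin3a. Over 11 alternatives the difference of Sin3a to Sin3b stayed between -0.20 and -0.15. The log2 ratio of Mbd2 to Mbd3 was 3.17, 3.30 and 3.39 in SAHA libraries, against 3.12, 3.12 and 3.14 in saline libraries. These groups did not overlap either, with a difference of 0.16 (exact p = 0.1, 0.52 adjusted over the 13 pairs), between 0.10 and 0.23 over the alternatives. Groups apart were also seen for 23.9% of all genes taken singly, in either direction. The groups overlapped for the other 11 pairs, with exact p from 0.2 to 0.7. Among them, the largest differences were 0.12 for Ing1 to Ing2 and -0.098 for Mta1 to Mta3, each at an exact p of 0.2. The smallest were 0.015 for Arid4a to Arid4b, 0.025 for Tbl1x to Tbl1xr1 and 0.031 for Rcor1 to Rcor3. A ratio of signals is not a ratio of molecules, since each probe set has its own brightness, and only the difference between groups is read here.

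**Figure D5:**
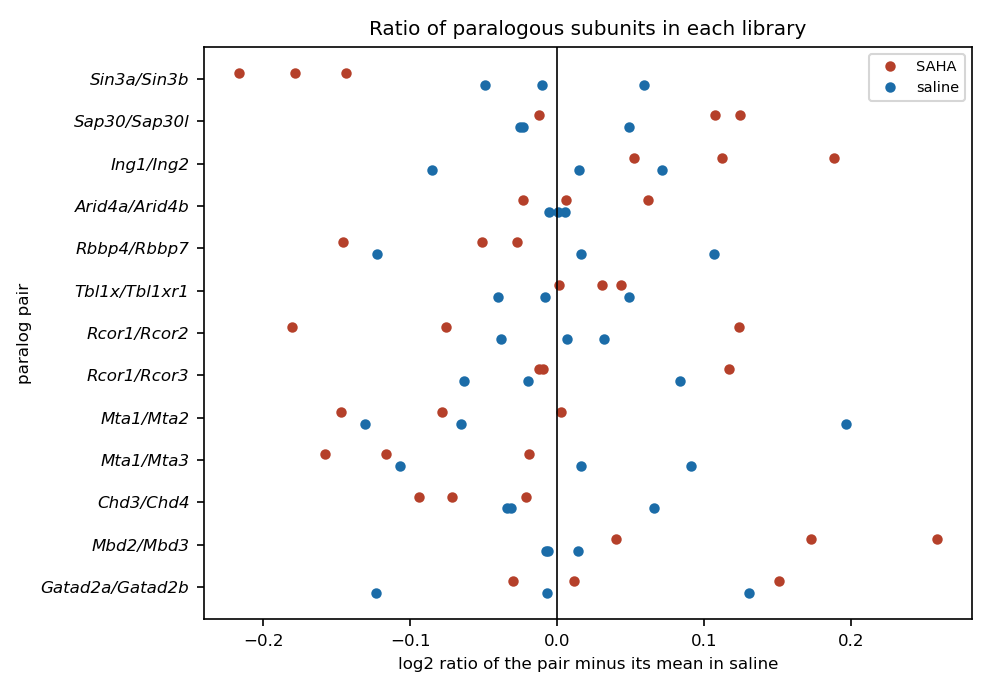
Log2 ratio of each of 13 paralog pairs in each library minus its mean in saline, with SAHA points drawn above saline points in each row (3 libraries per group). The SAHA points lie apart from the saline points for Sin3a/Sin3b, to the left, and for Mbd2/Mbd3, to the right.

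The enzymes and further partners of these complexes were read from a list of 30 symbols, of which 24 were measured. At an unadjusted p under 0.05 stood 0 of the 24 in limma, against 17.4% of all genes, and 12 were above and 12 below saline, at a median of 0.00050. Hdac1 and Hdac2, the catalytic subunits of Sin3, NuRD, CoREST and MIER, differed by -0.023 (SE 0.071) and -0.089 (SE 0.071). Hdac3, that of NCoR, differed by -0.088 (SE 0.057). Sinhcaf, a further Sin3 subunit, stood highest at 0.19 (SE 0.087), and Morf4l1, a chromodomain protein found with Sin3, lowest at -0.17 (SE 0.077); both were named after their values were seen. Of the neuronal genes under REST, 13 of 16 listed symbols were measured, and 0 of them were at an unadjusted p under 0.05 in limma. Among these 13, 4 were above and 9 below saline, at a median of -0.014 and between -0.14 and 0.077; of genes at or above the median signal, where these 13 lie, 66.4% were lower. The groups did not overlap for 4 of the 13, with Syn1 and Snap25 higher and Scn2a and Tubb3 lower, against 23.9% of all genes. These 4 were named after their values were seen. Scn2a had 14 probe sets, and Hdac1 and Sinhcaf had 2 each, of which only the brightest is given here.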

How the data were processed

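RNA of 6 libraries was read on Affymetrix ST arrays after whole-transcript amplification, per the labels' protocols. The authors deposited log2 values per probe set, made with Affymetrix Expression Console and RMA per the submitters' processing notes; versions, scan dates and batches are not given in the sources used here. RMA sets the arrays to a common distribution of probe signals, so only relative levels can be compared. The platform annotation names 1 gene for 21789 of 35556 probe sets, more than 1 for 1621, and leaves 12146 unnamed. A gene was represented by its brightest single-symbol probe set, giving 19938 genes; 19855 Entrez identifiers were found in the RefSeq table of GRCm38.p6, from which only chromosomes and promoters were used. Of the subunits, 32 had 1 probe set and 3 had 2. Columns of per-sample values left unused numbered 0.

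SAHA was compared with saline with limma (version 3.58.1; lmFit, then eBayes; R 4.3.3), two-sided, without a filter or block, with Benjamini-Hochberg adjustment over all genes at a threshold of 0.05. The fit was tested on simulated data. Shares at an unadjusted p under 0.05 are descriptions. The members and lists were chosen with earlier results of these data known. All subunits are named; values per library are given for the 3 of smallest p in each complex and for set scaffolds and enzymes, with others added after the values were seen. Of the listed partners, those at an unadjusted p under 0.05 and the catalytic and scaffold genes were to be named. Alternatives covered scaling, a signal filter, probe set choice, variance models, array weights, a replicate block and each library left out. Figures were drawn with matplotlib 3.10.9.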

Additional observations from a re-analysis of the deposited data

How the results depend on the processing

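The number of genes past the adjusted threshold was 0 in limma on the deposited values, where 3472 were at an unadjusted p under 0.05. Dropping the dimmer genes gave 27 of 9969 genes. A mean-variance trend in eBayes gave 28 of 19938 and its robust form 31 of 19938. Of the called genes 0 were subunits, which says little where so few genes were called. The number past the threshold was 0 after each scaling, with array weights, with probe sets averaged and without each library. With the replicate number as a block 0 genes passed, and the median difference of the subunits stayed at -0.038. In that fit 2 of the 35 subunits (Sin3a and Rest) were at an unadjusted p under 0.05, against 15.5% of all genes. The libraries share only these numbers: same-numbered deviations from the group means correlated at -0.10, -0.079 and 0.015 across genes. The count of subunits at an unadjusted p under 0.05 was 3, lay between 1 and 2 when 1 library was left out, and was 0 without saline replicate 1 and SAHA replicate 3, also after cyclic loess normalization, an alternative added after the data were seen. The median difference of the subunits was -0.076 after median centring, -0.012 after quantile normalization, -0.015 after cyclic loess and -0.0086 after cyclic loess without those 2 libraries; leaving out 1 library gave -0.051 to -0.024. The cause of these shifts was not tested. Differences of single subunits moved by less than the spread between libraries in 549 cases and by more in 44. The sign of Sin3a (17 alternatives), Rest (16) and Mier1 (17) turned in 0 of them. With 3 arrays per group, the standard errors of the subunits were 0.054 to 0.10.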
